A study of Rattus norvegicus with 12 samples.

Results

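The circulating rat microRNAs (miRs) rno-miR-34a-5p and rno-miR-31a-5p were followed through 12 small RNA libraries made from extracellular vesicles (EVs) of serum. They were chosen by their raw counts, because both were lower with rapamycin than with vehicle at day 21 in these same libraries, and they are 2 of the 426 miRs in the count table. The day 21 values below are therefore a description with no test, and the treatment was tested only at day 7, whose animals did not enter the choice. The edgeR fit took its estimate of the spread and its abundance cutoff from all 12 libraries, those of day 21 among them. The exact permutation tests compared day 7 libraries alone, but levels scaled to the miR total took their normalization from all 12 libraries. Day 21 libraries entered neither the permutation tests on counts scaled to spike-ins nor the edgeR alternative limited to the groups compared. The libraries came from 12 wild-type female Wistar rats aged 12 weeks, all with a needle puncture of the left Achilles tendon, and no uninjured serum was among them. One arm received rapamycin, an inhibitor of the mTOR kinase, at 2 mg/kg by daily intraperitoneal injection from the day after surgery, with 5 injections by day 7 or 19 by day 21, and the other arm received the PEG and TWEEN 80 vehicle. Rapamycin was dissolved in DMSO before dilution, and the methods do not name DMSO in the vehicle. Each treatment had 3 animals at day 7 and 3 other animals at day 21. The labels name the tissue as tendon, whereas the design text and the methods describe vesicles of whole-animal serum, so the cell of origin of either miR is not known from these data, and fewer vesicles of a given origin cannot be told apart from less miR per vesicle. The vesicles were collected by size-exclusion chromatography, which does not exclude all other carriers of serum miRs.

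A miR is cut from a hairpin precursor and guides the silencing of messenger RNAs, mainly through pairing of bases 2 to 8, the seed. miR-34a is a direct transcriptional target of p53 and belongs to a seed family that restrains the cell cycle and rises in many forms of cellular senescence. miR-31 is a miR of epithelium, muscle and connective tissue cells that has been studied in wound repair. The mature sequences of the 5 rat miRs that share the miR-34a seed are shown first, because they show which rows of the table could silence the same messages, followed by miR-31a-5p, whose seed no other rat mature miR in the RefSeq table carried. Sequences are those of RefSeq on the GRCr8 assembly, 5′ to 3′, with the seed in capitals.
rno-miR-34a-5p: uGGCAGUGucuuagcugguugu
rno-miR-34b-5p: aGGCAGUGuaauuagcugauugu
rno-miR-34c-5p: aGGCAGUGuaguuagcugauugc
rno-miR-449a-5p: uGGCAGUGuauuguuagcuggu
rno-miR-449c-5p: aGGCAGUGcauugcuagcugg
rno-miR-31a-5p: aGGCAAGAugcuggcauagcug

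Both member genes lie on chromosome 5 of GRCr8 and both miRs are 22 bases long. Mature miR-34a-5p occupies chr5:165815971-165815992 on the plus strand, at bases 20 to 41 of the 102-base Mir34a hairpin, which overlaps the long non-coding RNA gene LOC103692514. Mature miR-31a-5p occupies chr5:108714906-108714927 on the minus strand, at bases 28 to 49 of the 106-base Mir31 hairpin, which overlaps the long non-coding RNA gene LOC130062807. The opposite strand of Mir31 carries Mir3554, and its product rno-miR-31b, which is the reverse complement of bases 1 to 19 of miR-31a-5p, had no row in the table. Among the 692 other mature miRs of the reference, the nearest to miR-34a-5p was miR-27a-5p with 4 mismatches over 17 aligned bases, and the nearest to miR-31a-5p was miR-485-5p with 5 mismatches over 17, against the 1 mismatch that the authors allowed when reads were assigned.

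Both miRs were detected in all 12 libraries at low counts. miR-34a-5p held 300 counts in total and ranked 98 of 426, and miR-31a-5p held 242 and ranked 107. Their share of the miR counts of a library ran from 0.0088% to 0.126% for miR-34a-5p and from 0.00612% to 0.111% for miR-31a-5p. Libraries held 16327 to 95834 miR counts, and a floor of 3 counts corresponded to 31.3 to 184 CPM (counts scaled to 1000000 miR counts of the library). The reads carried no molecular identifiers, so this floor and the intervals below cover counting error only. Replicate 2 of the rapamycin day 7 group and replicate 1 of the vehicle day 7 group stood apart from the others. Synthetic spike-ins took 24.3% and 13.6% of their counts against 52.5% to 71.8% in the other 10, and the study's listing of read composition holds only those 10, with no reason given. A figure caption of the study also counts 10 samples in its miR analysis, while its tables of called miRs state the full number of animals per group. The day 7 results of the 2 miRs, the list medians and the marker sums are given with all 12 libraries and without these 2.

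At day 7, miR-34a-5p had raw counts of 82, 17 and 65 in the vehicle libraries (replicates 1 to 3) and of 13, 37 and 10 in the rapamycin libraries. The groups overlapped, since vehicle replicate 2 lay below rapamycin replicate 2. At day 21 the vehicle libraries had 18, 35 and 13 counts and the rapamycin libraries 4, 2 and 4, and the groups did not overlap. The exact 95% Poisson interval reached from 0.242 to 7.22 for the 2 counts of rapamycin day 21 replicate 2 and from 6.92 to 22.2 for the 13 counts of vehicle day 21 replicate 3.

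At day 7, miR-31a-5p had raw counts of 106, 4 and 27 in the vehicle libraries and of 5, 26 and 16 in the rapamycin libraries. The vehicle group held both the highest and the lowest count of the 6, so its range enclosed that of rapamycin. At day 21 the vehicle libraries had 12, 19 and 21 counts, and the rapamycin libraries had 1, 3 and 2. The groups did not overlap, and no rapamycin library exceeded the floor of 3 counts. The interval for the single count of rapamycin day 21 replicate 1 reached from 0.0253 to 5.57.

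**Figure D1:**
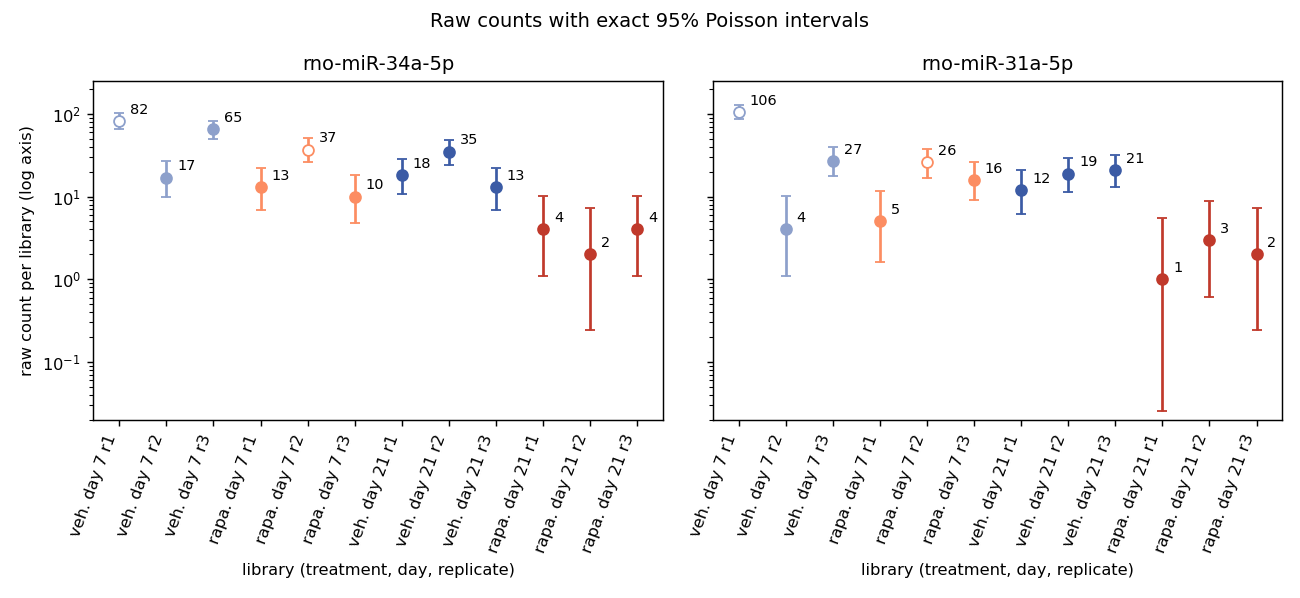
Raw count of each miR (log axis) in each of the 12 libraries, with the count printed beside each point and bars for the exact 95% Poisson interval; open circles are the 2 libraries that stood apart. The rapamycin day 21 libraries held 2 to 4 counts of miR-34a-5p and 1 to 3 of miR-31a-5p, the lowest of the 4 groups.

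Depth differed along the same line as the choice of the 2 miRs. At day 21 the miR total was 16327 to 23822 with rapamycin and 25032 to 32126 with vehicle, with no overlap, so the raw counts compare libraries of unequal depth, and the part of depth in the day 21 counts was not tested. Levels were next scaled to the library as CPM with TMM normalization factors, which set the libraries on one scale by assuming that most miRs do not differ.

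On this scale miR-34a-5p averaged 855 ± 530.0 CPM (SD, n = 3) in vehicle and 465 ± 92.5 CPM in rapamycin libraries at day 7, and 862 ± 473 CPM in vehicle and 169 ± 85.3 CPM in rapamycin libraries at day 21. Single libraries ran from 429 to 1449 CPM and from 398 to 570.4 CPM at day 7, and from 532 to 1404 CPM and from 83.2 to 254 CPM at day 21. In the order of the means, vehicle day 21 and vehicle day 7 overlapped, as did vehicle day 7 and rapamycin day 7, whereas every rapamycin day 21 library lay below every rapamycin day 7 library.

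miR-31a-5p averaged 530.3 ± 398 CPM in vehicle and 412 ± 265 CPM in rapamycin libraries at day 7, and 685 ± 224 CPM in vehicle and 91.0 ± 31.2 CPM in rapamycin libraries at day 21. Single libraries ran from 101 to 888 CPM and from 153 to 682 CPM at day 7, and from 433 to 860 CPM and from 63.4 to 125 CPM at day 21. Here too the first 3 groups in the order of the means overlapped with their neighbours. Every rapamycin day 21 library lay below every rapamycin day 7 library, while vehicle day 7 replicate 2, with its 4 counts, lay within the range of rapamycin day 21.

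**Figure D2:**
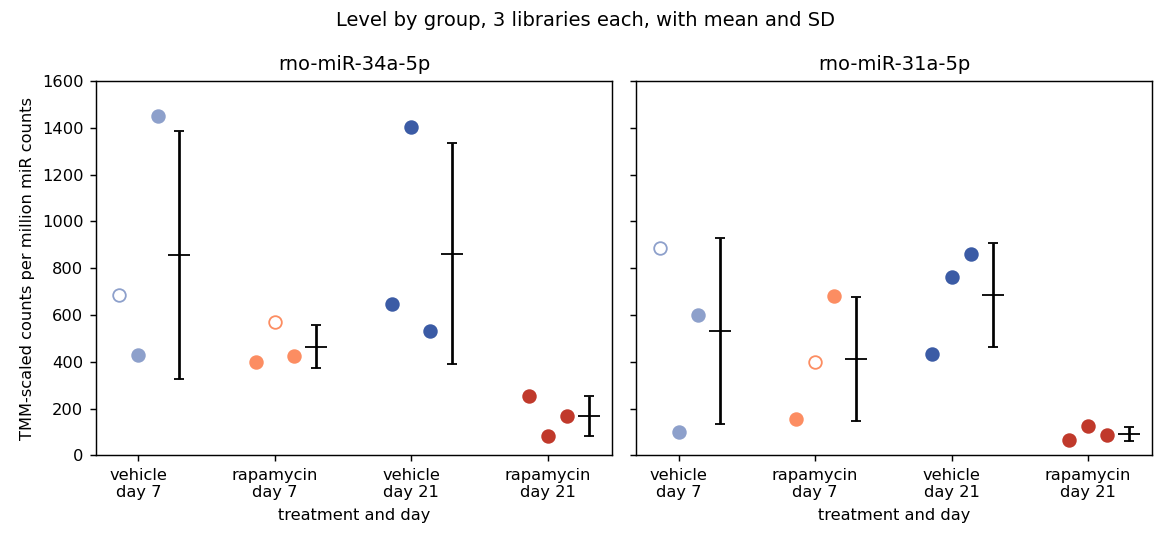
Level of each miR in TMM-scaled CPM by treatment and day, with 1 point per library, open circles for the 2 libraries that stood apart, and the mean ± SD (n = 3) beside each group. The rapamycin day 21 points sit at 83.2 to 254 CPM for miR-34a-5p and at 63.4 to 125 CPM for miR-31a-5p, and the 2 treatments overlap at day 7.

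The spread among vehicle day 7 animals was larger than counting alone gives. The SD of log2 CPM, here with no prior count, was 0.89 for miR-34a-5p and 1.67 for miR-31a-5p in that group, against 0.24 and 0.45 from counting error. In the rapamycin day 21 group, with 1 to 4 counts a library, the SD was 0.81 and 0.49 and the counting error 0.83 and 1.13.

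At day 7 rapamycin had no detectable effect on either miR. The log2 fold change of miR-34a-5p, rapamycin over vehicle, was -0.86 ± 0.75 (SE; 95% interval -2.33 to 0.60; edgeR quasi-likelihood test, adjusted p = 0.994), with lower means in the rapamycin group but overlapping libraries. For miR-31a-5p it was -0.40 ± 0.81 (95% interval -1.99 to 1.19), and its abundance lay below the cutoff of 9.11 log2 CPM under which miRs were left out of the adjustment. With no cutoff its adjusted p was 1 (edgeR). The call was thus made for 0 of the 2 miRs, where 0.935% of the 107 miRs above the cutoff were called. DESeq2 called 0 of 425 miRs, and neither miR had an unadjusted p under 0.05 in edgeR. A fall of 1 log2 unit lies within both intervals, so a change of that size was not detectable at this depth and number of animals.

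Exact permutation tests were run on each miR alone. For log2 CPM the difference was -0.67 for miR-34a-5p (two-sided exact permutation test, p = 0.2) and -0.15 for miR-31a-5p (p = 0.9, exact), where 3 against 3 libraries cannot go below 0.1. Without the 2 libraries that stood apart the differences were -0.87 (exact permutation test, p = 0.333) and 0.30 (exact, p = 0.667), and 0.333 is the smallest p that 2 against 2 allow. Both miRs had overlapping groups at day 7, where 2.6% of 154 evaluable miRs (5 counts or more in 6 libraries or more) had every rapamycin library below every vehicle library.

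Without the 2 libraries that stood apart, which leaves 2 libraries per treatment, the day 7 estimate of miR-34a-5p was -1.13 ± 0.86 (SE; 95% interval -2.82 to 0.56) and that of miR-31a-5p was 0.28 ± 1.00 (SE; 95% interval -1.69 to 2.25). The adjusted p over all 365 miRs of these libraries was 0.979 and 1 (edgeR). The direction of miR-31a-5p at day 7 thus turned with these libraries, and that of miR-34a-5p did not. Neither passed the abundance cutoff in these 10 libraries, where 10% of the 30 miRs tested were called. Leaving out vehicle day 7 replicate 1 alone gave 0.26 for miR-31a-5p, and leaving out rapamycin day 7 replicate 1 alone gave 0.013.

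**Figure D3:**
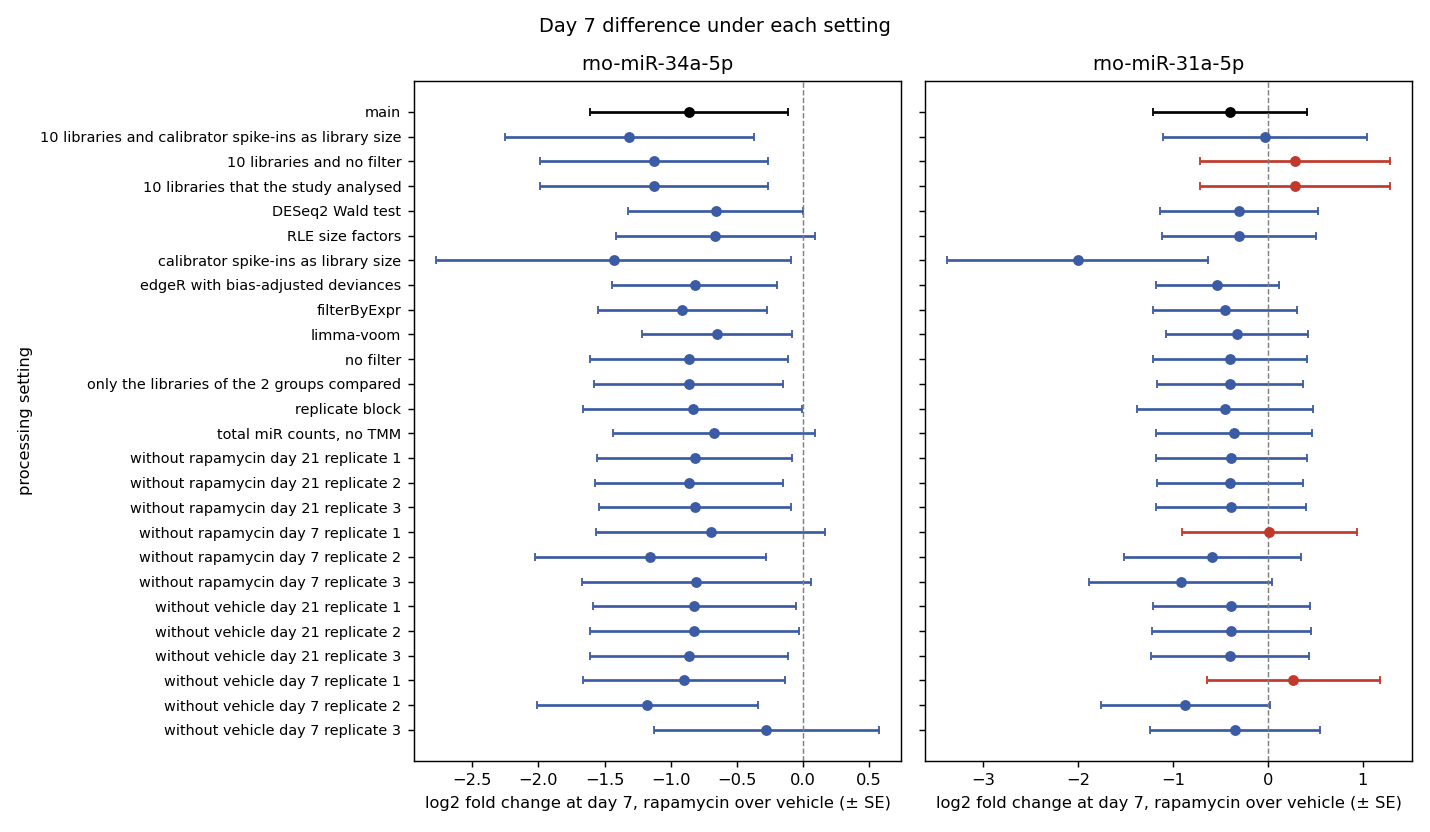
Log2 fold change at day 7, rapamycin over vehicle, with its SE, for each processing setting in turn (1 row each, the first being the reported fit in black, red where the value is above 0). miR-34a-5p lies below 0 in each of the 25 alternatives, from -1.43 to -0.28, and miR-31a-5p in 21 of 25.

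At day 21, which chose the miRs, the fitted log2 fold change was -2.37 ± 0.85 (SE) for miR-34a-5p and -2.84 ± 0.96 for miR-31a-5p, given as a description. These were the second lowest and the lowest of the 154 evaluable miRs, whose median was -0.12. Nothing is read from these ranks, because the rule used the same difference. With 1 to 4 counts in each rapamycin day 21 library, the 2 miRs were evaluable only through the other groups. Both were among the 7.79% of those 154 miRs in which every rapamycin library lay below every vehicle library, a count from which nothing is read because the rule used it. Pooled over the libraries, the rapamycin level was 0.184 of the vehicle level for miR-34a-5p, from 10 against 66 counts, with an exact 95% counting interval of 0.0844 to 0.360. For miR-31a-5p it was 0.140, from 6 against 52 counts, with an interval of 0.0492 to 0.326. The spread among animals is not in these intervals. They pool the counts that chose the miRs, so they are no test and nothing is read from them. With timepoint as a block and all 12 libraries, the estimate was -1.53 ± 0.56 for miR-34a-5p and -1.43 ± 0.62 for miR-31a-5p, again as a description because the day 21 libraries enter it. The study called miR-34a-5p lower with rapamycin in its own comparison blocked on timepoint, and did not list miR-31a-5p. That call comes from the same data, so it is no separate support.

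Across time, the log2 fold change from day 7 to day 21 in vehicle animals was 0.012 ± 0.74 for miR-34a-5p and 0.34 ± 0.81 for miR-31a-5p. In rapamycin animals it was -1.50 ± 0.84 and -2.09 ± 0.96. With the calibrator spike-ins as library size the vehicle values turned to -2.22 and -2.76, and leaving out 1 library in turn gave -0.54 to 0.54 for miR-34a-5p and -0.13 to 0.95 for miR-31a-5p in vehicle. The time comparisons share their day 21 libraries with those that chose the miRs, so no test of them or of the difference between the days was made.

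As a scale that does not rest on the miR total, counts were also set against the 7 calibrator spike-ins added to each library. At day 21 miR-34a-5p stood at 4.96 to 15.3 counts per 10000 calibrator counts with vehicle and at 0.967 to 1.68 with rapamycin, and miR-31a-5p at 5.63 to 8.31 and at 0.420 to 1.45. These are the counts that chose the miRs, rescaled, and on this scale 10.4% of the 154 evaluable miRs had every rapamycin library below every vehicle library, so nothing is read from it. The miR total itself ran from 9549 to 15076 per 10000 calibrator counts with vehicle and from 6859 to 10991 with rapamycin at day 21. At day 7 the 2 libraries that stood apart reached 109 (vehicle) and 39.8 (rapamycin) for miR-34a-5p, and 141 and 28.0 for miR-31a-5p, while the other 4 libraries lay at 4.58 to 20.0 and at 1.49 to 8.31. The day 7 groups overlapped on this scale for both miRs (exact permutation test on the log2 values, two-sided, p = 0.5 for miR-34a-5p and p = 0.8 for miR-31a-5p).

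**Figure D4:**
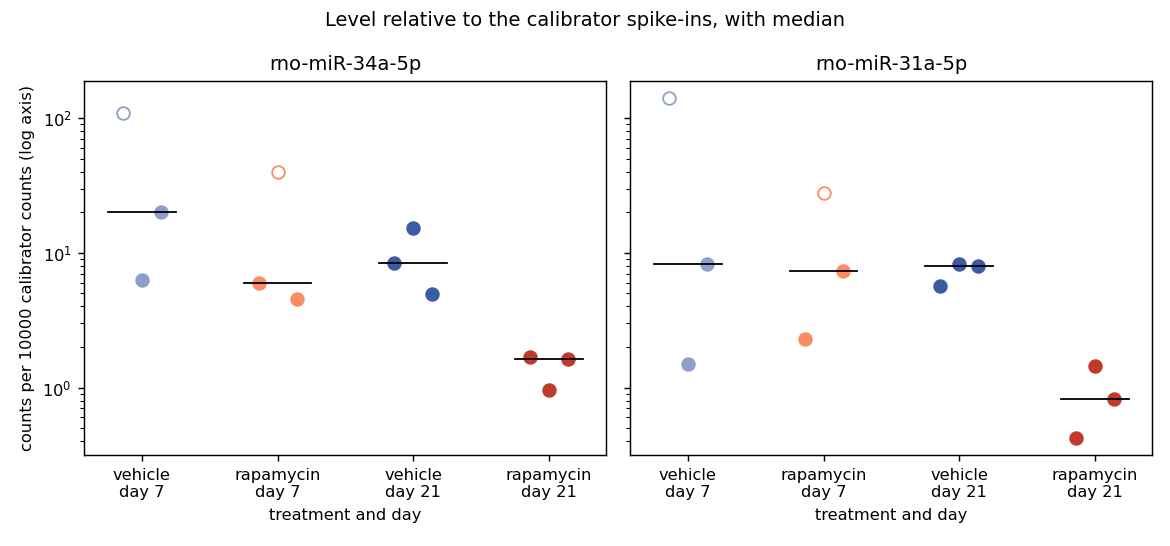
Level of each miR as counts per 10000 calibrator spike-in counts (log axis) by treatment and day, 1 point per library, open circles for the 2 libraries that stood apart, and a line at the median of each group. The rapamycin day 21 points lie at 0.967 to 1.68 and 0.420 to 1.45, under every other group's points, and the 2 open circles lie above the rest.

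The 2 miRs varied together across libraries. Their log2 CPM values had a Pearson r of 0.731 and a Spearman rho of 0.706 over the 12 libraries, and an r of 0.712 over 10, given without a test because the libraries share depth and because both miRs were picked for the same day 21 difference. The ratio of miR-34a-5p to miR-31a-5p counts ran from 0.619 to 4.25, so that neither was always the more abundant, and miR-31a-5p was the higher in 4 of the 12 libraries.

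**Figure D5:**
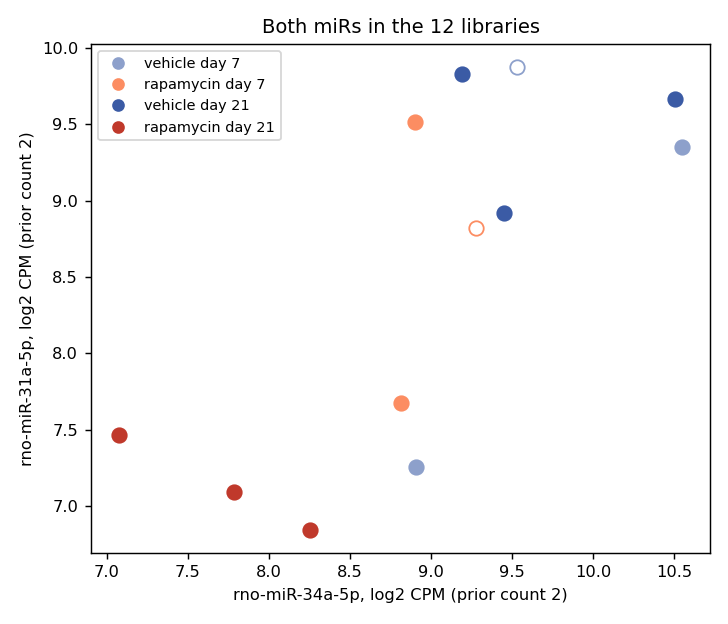
Log2 CPM of miR-31a-5p against log2 CPM of miR-34a-5p (prior count 2), 1 point per library, coloured by treatment and day, with open circles for the 2 libraries that stood apart. The 3 rapamycin day 21 libraries form the lower left end of the cloud, and the Pearson r over all 12 points is 0.731.

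The miRs whose log2 CPM most resembled miR-34a-5p across the 12 libraries were let-7f-5p (r = 0.741), miR-31a-5p, let-7b-5p (r = 0.709), miR-33-5p (r = 0.663) and miR-148a-3p (r = 0.658), where the median r over the 153 other miRs compared was 0.042. For miR-31a-5p they were miR-148a-3p (r = 0.759), miR-34a-5p, miR-185-5p (r = 0.730), miR-30b-5p (r = 0.587) and miR-24-3p (r = 0.581), with a median of 0.0848. These likenesses are a description of 12 libraries. let-7f-5p, a far more abundant miR, had 1951, 384 and 1220 counts with vehicle and 249, 823 and 105 with rapamycin at day 7. At day 21 it had 336, 467 and 424 counts with vehicle and 153, 88 and 311 with rapamycin, a pattern of raw counts like that of miR-34a-5p but with a smaller fitted change of -0.86 at day 21.

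The other miRs with the miR-34a seed were scarcer than miR-34a-5p, which supplied 300 of the 402 counts of the 5 family members (74.6%). Its share was 83.2% and 79.5% in the vehicle groups at day 7 and day 21, and 57.1% and 58.8% in the rapamycin groups, the last from 17 family counts. These shares pool the libraries of a group, and by single library the treatments overlapped on both days. The day 21 shares also hold the counts that chose miR-34a-5p, so nothing is read from them. miR-34b-5p, transcribed with miR-34c from a shared locus that overlaps Hoatz on chromosome 8, had 8, 3 and 0 counts with vehicle and 4, 25 and 3 with rapamycin at day 7, and 4, 1 and 1 against 1, 0 and 2 at day 21. Its day 7 log2 fold change was 2.09 ± 1.35 (edgeR, adjusted p over all miRs = 1), and 25 of its 52 counts came from 1 library that stood apart. miR-34c-5p had 12, 2 and 0 counts with vehicle and 1, 7 and 4 with rapamycin at day 7, and 0, 11 and 0 against 0, 0 and 4 at day 21. miR-449a-5p and miR-449c-5p, from a locus on chromosome 2, held 7 and 2 counts in all, and 6 and 2 of these were in vehicle day 7 libraries. Only miR-34a-5p of the family had at least 5 counts in 6 libraries, so its day 21 difference could not be set against that of its relatives at this depth.

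Little was seen of the other arms of the 2 hairpins. miR-31a-3p had 2 counts in vehicle day 7 replicate 1 and 1 in rapamycin day 7 replicate 2, the 2 libraries that stood apart, and 0 in the other 10. miR-34a-3p had no row in the table. miR-34b-3p had 3 counts, all in rapamycin day 7 replicate 2, and miR-34c-3p had 1 in vehicle day 7 replicate 1.

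A list of 15 miRs known to be regulated by p53, miR-34a-5p among them, was read beside the 2 miRs. In the table were 14, and 8 lay above the cutoff, with 0 called and 0 with an unadjusted p under 0.05 (edgeR), a count that is no result about the list where 0.935% of all miRs tested were called. Without miR-34a-5p, the median log2 fold change of the other 13 was 0.16 at day 7, where 2 were below 0, and -0.31 at day 21, where 10 were. Over all 426 miRs the medians were -0.07 and 0, with 238 and 166 below 0, and over the 154 evaluable miRs 84 were below 0 on each day. The median of the 13 at day 7 was 0.27 without the 2 libraries that stood apart. Undetected miRs enter the day 21 medians at 0, and over the 154 evaluable miRs the medians were -0.032 and -0.12. The most abundant were miR-16-5p, with a day 7 log2 fold change of 0.052 ± 0.46, and miR-143-3p, with -0.029 ± 0.47, both at an adjusted p of 0.994 (edgeR). Their day 21 values were 0.060 and -0.31, against -2.37 for miR-34a-5p.

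Senescence-associated miRs gave a median of -0.14 at day 7 and 0.017 at day 21 over 15 members, of which 9 lay above the cutoff and 0 were called. The wound repair and fibrosis list gave medians of -0.096 and 0.032 over 14 members, with 8 above the cutoff and 0 called. Without the 2 libraries that stood apart the day 7 medians were -0.092 and 0.41, against 0 over 365 miRs, so that of the wound repair list changed sign. miR-21-5p, a miR raised in many fibrotic tissues and the most abundant of both lists, had a day 7 log2 fold change of -0.32 ± 0.46 (edgeR, adjusted p = 0.994), and miR-29a-3p, which represses collagen messages, had -0.14 ± 0.47. miR-19b-3p, of the miR-17-92 cluster, had 0.087 ± 0.46.

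The only miR called at day 7 with all 12 libraries was miR-150-5p, a miR of mature lymphocytes, at -1.83 ± 0.52 (edgeR, adjusted p = 0.0492). It had 172, 377 and 654 counts with vehicle and 112, 111 and 48 with rapamycin, and its fitted day 21 difference was 0.069 ± 0.51. The call was made in 14 of 26 alternatives. It was lost without rapamycin day 7 replicate 2 or 3, without vehicle day 7 replicate 2 or 3, and under 8 of the other settings, among them DESeq2, no abundance filter and either total-count or calibrator scaling.

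Markers of blood and tissue cells were read for the same libraries. The 5 erythrocyte miRs, led by miR-16-5p and miR-451-5p, summed to 27070 to 197930.0 CPM over the 12 libraries, and all 5 were above the abundance cutoff. The summed level of all 6 marker lists (erythrocyte, hepatocyte, striated muscle, epithelium, leukocyte and endothelium) overlapped between treatments at day 21, and likewise at day 7 with all 12 libraries. Without the 2 libraries that stood apart, a view taken after the data were seen, 5 of the 6 lists did not overlap at day 7. Nothing is read from this count, since 2 against 2 libraries cannot go below p = 0.333 in an exact permutation test. The share of all miRs without overlap in this view was not computed. Without the 2 libraries, the leukocyte sum was 32185 and 43211 CPM with vehicle and 17385 and 21063 CPM with rapamycin, and the endothelial sum 21583 and 22174 CPM and 16192 and 21093 CPM. The hepatocyte sum was 4435 and 4493 CPM with vehicle and 11052 and 11505 CPM with rapamycin, the epithelial sum 1761 and 2676 CPM and 3215 and 3878 CPM, and the striated muscle sum 151 and 267 CPM and 341 and 1255 CPM. At day 21 the erythrocyte sum was 119015 to 197930.0 CPM with vehicle and 143300.0 to 195228 CPM with rapamycin, and the leukocyte sum was 22313 to 32099 CPM and 13689 to 32351 CPM. The epithelial sum, over miRs of the miR-200 family, miR-203a and miR-205, was 1334 to 1842 CPM with vehicle and 719 to 3578 CPM with rapamycin at day 21. Of the 7 striated muscle miRs in the table, 5 were at 0 in all vehicle and 6 in all rapamycin day 21 libraries. The hepatocyte sum was 361 to 7042 CPM with vehicle and 381 to 5076 CPM with rapamycin at day 21, and the endothelial sum was 15247 to 25465 CPM and 9071 to 32985 CPM. Of the 30 marker miRs in the table, those below the abundance cutoff could not be called. Among the rest, miR-150-5p alone was called at day 7, where 0.935% of the 107 miRs above the cutoff were called. The median day 7 log2 fold change was 0.18 for the erythrocyte, 0.72 for the hepatocyte, -1.20 for the striated muscle, 0.16 for the epithelial, -0.85 for the leukocyte and 0.018 for the endothelial list, against -0.07 over all miRs. Without the 2 libraries it was 0.060, 1.41, 1.00, 0.54, -0.90 and -0.21 in the same order, against 0 over all, so the striated muscle and endothelial medians changed sign. miR-133a-3p of striated muscle had 1026 of its 1190 counts in 1 library, vehicle day 7 replicate 1, which also held the highest raw counts of both miR-34a-5p and miR-31a-5p. That library was the deepest, with 95834 miR counts. In TMM-scaled CPM its miR-31a-5p, at 888, was still the highest, but its miR-34a-5p, at 687, lay below the 1449 of vehicle day 7 replicate 3. The day 7 log2 fold change of miR-133a-3p was -2.03 ± 0.65 (edgeR, adjusted p = 0.101). The ratio of miR-451-5p to miR-23a-3p, which rises when red cells lyse, was 2.25 to 5.34 with vehicle and 2.41 to 5.80 with rapamycin at day 21. It was 1.20 and 0.443 in the 2 libraries that stood apart and 2.54 to 3.23 in the other day 7 libraries. The part of these cell sources in the level of either miR was not tested.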

How the data were processed

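Small RNA of serum EVs was sequenced from 12 rats, and the labels gave 4 groups of 3. The authors deposited raw read counts per mature rat miR (426 rows, with 10 spike-in rows, of which 7 are calibrators), made with cutadapt 3.3, Bowtie 1.3.0 and miRDeep2 against mRatBN7.2 and miRBase 22.1, per the labels and methods. Spike-ins were left out of library sizes. Counts were fitted with edgeR 4.0.16 (quasi-likelihood test, TMM normalization, the deviance method of edgeR 3.32) with a mean per treatment and day. The abundance cutoff was the quantile giving most calls, and p-values were Benjamini-Hochberg adjusted. The fit was tested on simulated data. Exact permutation tests used SciPy 1.17.1. The named miRs, by rule, were the 2 miRs, their seed family and locus products, the 2 most abundant of each list and any called, the 5 most alike by Pearson r, and every miR called at day 7. The members and lists were chosen with earlier results of these data known. Replicates are separate animals, and p-values measure the spread between them. Alternatives included DESeq2 1.42.0, limma 3.58.1, other scalings and filters, 10 libraries and each library left out. GRCr8 served for names and sequences only.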

Additional observations from a re-analysis of the deposited data

Results flagged for a closer look

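The 2 libraries that stood apart were extreme for both miRs when counts were set against the calibrator spike-ins. In the 6 rapamycin libraries, rapamycin day 7 replicate 2 had 39.8 counts of miR-34a-5p per 10000 calibrator counts, where the next library had 5.997, and 28.0 of miR-31a-5p, where the next had 7.33. In the 6 vehicle libraries, vehicle day 7 replicate 1 had 109 of miR-34a-5p, where the next had 20.0, and 141 of miR-31a-5p, where the next had 8.31. Each gap exceeded Dixon's 95% critical value of 0.625 for 6 samples, at ratios of 0.871, 0.749, 0.856 and 0.951. Chance flags about 1 in 20 groups, and each miR and treatment was looked at on both scales. The day 21 libraries, whose values the rule used, are in each set of 6. Neither library passed Dixon's value for either miR in TMM-scaled CPM, and their calibrator totals were 9294 and 7514 counts against 20686 to 32491 in the other 10. Both miRs are divided by these same totals, so the 4 gaps are not separate observations.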

How the results depend on the processing

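The limits are the depth, with 1 to 4 counts of each miR in the rapamycin day 21 libraries, and 3 animals a group. The day 7 log2 fold change of miR-34a-5p stayed below 0 in 25 of 25 alternatives (-1.43 to -0.28, adjusted p 0.51 to 1 where given). That of miR-31a-5p did so in 21 of 25 (-2.01 to 0.28, adjusted p 0.93 to 1 where given): it was -2.01 with the calibrators as library size, 0.28 with 10 libraries, with or without the filter, and leaving out 1 library gave -0.92 to 0.26 (0.013 without rapamycin day 7 replicate 1, 0.26 without vehicle day 7 replicate 1). The cause was not tested. At day 21 both were below 0 in 22 of 22 alternatives, and leaving out 1 library gave -2.62 to -1.69 for miR-34a-5p, the latter without vehicle day 21 replicate 2. Nothing is read from the day 21 sign, because the rule chose both miRs for it and the alternatives refit the same counts. With the calibrators as library size, which scales by the low calibrator counts of the 2 libraries that stood apart, the change from day 7 to day 21 was -2.22 with vehicle and -3.48 with rapamycin for miR-34a-5p and -2.76 and -3.71 for miR-31a-5p, and the timepoint-blocked estimate of miR-31a-5p was -2.45. The number of miRs called at day 7, 1 as reported, was 3 with 10 libraries, 2 with 10 libraries and either no filter or calibrator scaling, 3 with bias-adjusted deviances, 2 with RLE size factors or with only the groups compared, and 0 with DESeq2, limma-voom, filterByExpr, no filter, at least 10 counts in every library, or the replicate block. With calibrator or total-count scaling it was 1, but that miR was miR-133a-3p in place of miR-150-5p. In the settings from DESeq2 to the replicate block that gave 0 calls, in the order named, an unadjusted p under 0.05 was seen for 3, 24, 2, 8, 2 and 2 miRs. Leaving out 1 library gave 0 to 7 calls, 0 without rapamycin day 7 replicate 3, 7 without vehicle day 7 replicate 1, and 2 without rapamycin day 7 replicate 1 or any 1 rapamycin day 21 library. Neither miR met the minimum of 10 counts in every library, so that filter gave no value for them. Same-numbered libraries are different animals and their deviations correlated at -0.782 to 0.311, so the numbers do not pair them; with the replicate block, the day 7 values were -0.83 for miR-34a-5p and -0.46 for miR-31a-5p.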
